A study of Mus musculus with 19 samples.

Results

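Fibroblasts grown out of mouse skin were compared directly with fibroblasts grown out of mouse tail, both organs of the body surface. The comparison holds the 2 skin arrays and the 3 tail arrays, 5 of the 19 samples of the series, chosen by the tissue that the labels give. The other samples are fibroblasts of 5 internal organs (gonad, heart, kidney, liver and lung). Of all samples 18 have scanner output and entered the fit. All donors were adult mice 8 to 10 weeks old. Minced tissue was digested with trypsin at 0.05% or collagenase at 0.5 mg/mL, the released cells grew for 5 days with 10% serum, and total RNA was hybridised to 1-colour Agilent arrays. The skin group and the tail group share this protocol, with no treatment and no genetic alteration named. The labels do not say which enzyme was used for which tissue, which body region the skin came from, whether replicates came from separate animals, or the strain and sex. The p-values therefore measure only the spread between these samples, and the small number of arrays limits their precision. That spread is the one within organs, pooled over the 18 arrays of all 7 organs. An SE below is thus not the spread of the skin and tail arrays alone. Some internal organ arrays in that pool correlated most with another organ over all genes. Gonad replicate 3 was nearest to skin replicate 1 (r = 0.944) and heart replicate 1 to kidney replicate 2 (0.931). Liver replicate 3 was nearest to lung replicate 1 (0.980). The part of these arrays in the pooled spread was not tested.

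Fibroblasts make and remodel the connective tissue matrix, and those of the skin keep a memory of their place in the body in the pattern of their Hox genes. Hox genes lie in clusters, and the position of a gene in its cluster follows the place along the body axis where it is active, with group 13 genes at the hind end. Skin and tail pieces also hold other tissues, among them epidermis, hair follicles and muscle, and in the tail also tendon, cartilage and bone. Markers of those cells were therefore read beside the fibroblast genes.

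A level below is the log2 of the processed spot signal relative to the 75th percentile of its array, and a difference is skin minus tail on that scale. Levels of different genes come from different probes and were not set against each other. Of all probes, 77.2% and 69.2% were well above background on the skin arrays, against 75.5%, 84.9% and 71.9% on the tail arrays. Tail replicate 2 is 1 of 5 arrays in the series whose negative control spots read above 40 units (48.3, against 32.2 to 35.6 on the other skin and tail arrays), and the remaining 4 belong to internal organs. All 5 arrays resembled their own organ: over all genes, r was 0.985 between the skin arrays, 0.975 to 0.982 among the tail arrays and 0.952 to 0.956 between skin and tail arrays. All 20 fibroblast markers were above background on all 5 arrays. The collagen gene Col1a1 had levels of 7.27 and 7.33 in skin fibroblasts, against 7.01, 6.71 and 7.39 in tail fibroblasts, and these overlapped.

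Skin and tail fibroblasts differed in 560 of 19723 genes tested (2.84%), by limma with Benjamini-Hochberg adjusted p under 0.05 and a log2 difference of at least 1. Of these, 233 genes (1.18%) were higher in skin and 327 (1.66%) higher in tail. Thbs4 and Hoxb13 led the genes higher in tail, and the keratin Krt17 and the acute phase gene Saa3 led those higher in skin. The median difference was 2.77 among the 233 genes and -2.79 among the 327, against 0.01 over all genes. In all 560 genes the skin and tail arrays did not overlap, which was so for 44.5% of all genes tested. Skin replicate 1 shared a slide with tail replicate 1, and skin replicate 2 with tail replicate 2. With the slide as a block 397 genes passed (169 higher in skin, 0.857%, and 228 in tail, 1.16%), 392 of them among the 560. On the 5 skin and tail arrays alone 2225 genes passed, 553 of them among the 560. Without the 5 high-background arrays 2368 genes passed, 559 of the 560 among them, and without skin replicate 2 only 77 genes did. In the plot of all genes these calls lie above and below a dense band around zero.

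**Figure D1:**
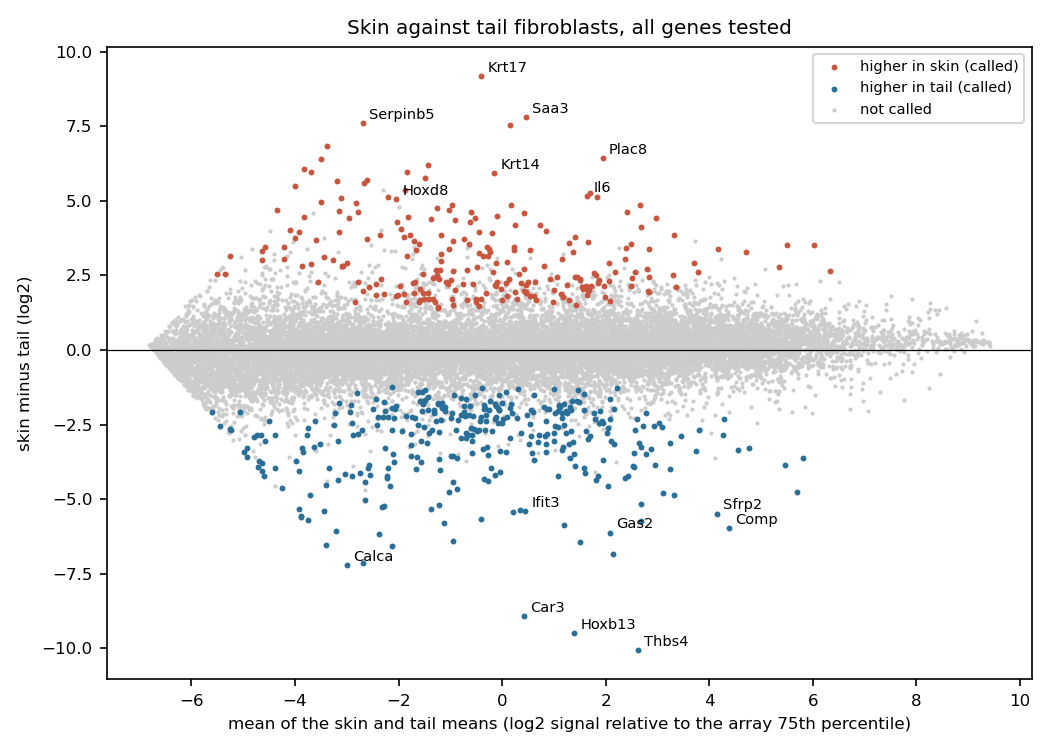
Difference between skin and tail fibroblasts (log2, skin minus tail) against the mean level of both (log2 relative to the array 75th percentile), 1 point per gene for 19723 genes. Red points are the 233 genes called higher in skin, blue points the 327 called higher in tail, and grey points the rest; Thbs4 at -10.07 and Krt17 at 9.19 lie at the ends.

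Hox genes differed in both directions, 2 genes of group 13 being higher in tail and 4 genes of groups 1 to 8 higher in skin. Hoxb13, a group 13 gene of the hind end of the body, had levels of -3.24 and -3.48 in skin fibroblasts, against 6.14, 5.89 and 6.40 in tail fibroblasts. All tail arrays lay far above both skin arrays, a difference of -9.50 ± 1.15 (SE, adjusted p = 0.00077), and it was -9.38 within slide 1 and -9.37 within slide 2. Hoxc13, which in mouse is also known for its part in hair and nail, stood at -0.46 and 0.11 in skin, against 2.92, 2.75 and 3.09 in tail, again without overlap (-3.09 ± 0.62, adjusted p = 0.014). Hoxa13 did not pass: its levels of -1.76 and -1.79 in skin lay below the 0.04, -0.19 and -0.25 in tail (adjusted p = 1.0). Hoxd13 was near the floor and the groups overlapped. Of the 4 group 13 genes 2 (50%) were called higher in tail, against 1.66% of all genes, and 0 in skin, with a median difference of -2.37.

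Of the Hox genes of groups 1 to 8, 4 were higher in skin. Hoxd8 had levels of 0.42 and 0.55 in skin, against -4.15, -4.06 and -5.51 in tail, and no tail array came near the skin arrays (5.06 ± 0.72, adjusted p = 0.0020). Hoxc6 (3.37 ± 0.84, adjusted p = 0.047), Hoxc4 (2.28 ± 0.56, adjusted p = 0.047) and Hoxa3 (2.20 ± 0.46, adjusted p = 0.018) were also higher in skin. By position, 2 of 12 genes of groups 1 to 4 and 2 of 10 of groups 5 to 8 were called, all higher in skin, with median differences of 1.16 and 0.98. These shares were 16.7% and 20%, against 1.18% of all genes called higher in skin. None of the 10 genes of groups 9 to 12 was called in either direction (median 0.03). Without the 5 high-background arrays 2 of them were called higher in skin and 2 higher in tail. The noncoding RNA Hoxa11os stood at -0.88 and -0.18 in skin, against 3.08, 3.05 and 3.04 in tail, without passing the test (adjusted p = 0.11). The calls of Hoxb13 and Hoxd8 were kept when each of the 5 skin and tail arrays was left out in turn. Those of Hoxc13, Hoxc6, Hoxc4 and Hoxa3 ended without skin replicate 1 (adjusted p = 0.090 to 0.27) and without skin replicate 2 (0.12 to 0.43), and 3 or 4 of the 6 Hox calls ended without any 1 tail replicate (0.056 to 0.16). With the slide as a block Hoxc6 and Hoxc4 did not pass (adjusted p = 0.10 for both), nor with median scaling (0.055 and 0.085), and Hoxa3 did not with quantile normalization (0.14).

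**Figure D2:**
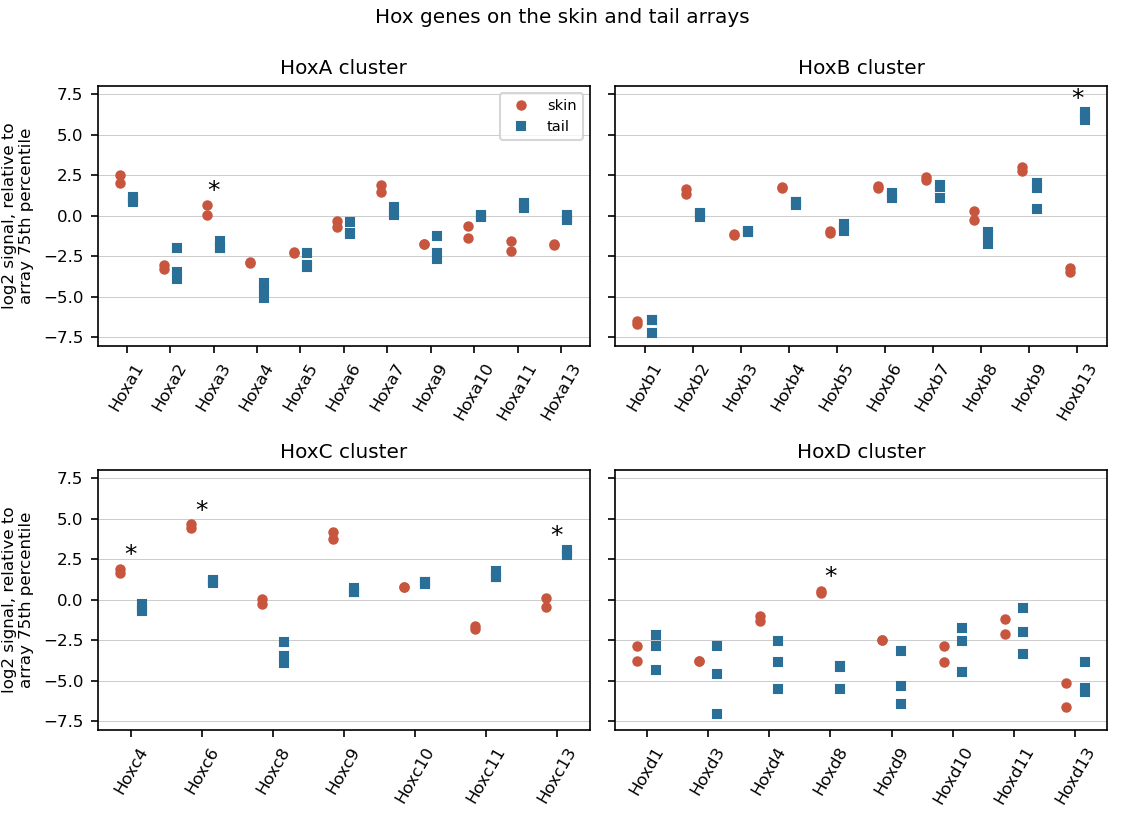
Levels of the Hox genes measured (log2 relative to the array 75th percentile), 1 panel per cluster with genes in cluster order; red circles are the 2 skin arrays, blue squares the 3 tail arrays, and an asterisk marks a called gene. Tail arrays stand above skin arrays at Hoxb13 and Hoxc13, and skin arrays stand above tail arrays at Hoxa3, Hoxc4, Hoxc6 and Hoxd8.

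Other regulators of position split between the groups. Of 51 regulators of limb, trunk and tailbud, 2 were called higher in skin and 3 higher in tail, with a median difference of 0.02. Together the calls were 9.80% of the list, against 2.84% of all genes. Pitx1, a homeobox gene of the hind limb, was at least 49.8-fold higher in skin, with levels of -0.97 and 0.27, against -7.40, -5.41 and -5.25 on tail arrays that were all not well above background (adjusted p = 0.015). Here and below, such a bound sets the mean of the brighter group against the mean, over the dim arrays, of the lowest signal well above background or the probe's own signal where that was higher. Tbx3, a T-box factor of limb and skin development, was also higher in skin (2.34 ± 0.40, adjusted p = 0.0060). Zic1, a zinc finger gene of the dorsal neural tube and somite, had levels of -2.35 and -2.67 in skin, against 3.12, 2.78 and 2.85 in tail. The groups lay far apart (-5.43 ± 1.11, adjusted p = 0.016). Pax3, a regulator of somite and muscle precursors, was higher in tail as well (-3.04 ± 0.71, adjusted p = 0.034). Tbx5, the forelimb T-box gene, stood at 0.02 and 0.52 in skin, against -3.52, -1.92 and -2.96 in tail, and Tbx4, its hindlimb counterpart, at -2.57 and -2.53 in skin, against 1.19, 0.99 and 1.33 in tail; neither passed (adjusted p = 0.38 and 0.32). Without skin replicate 1 all 5 calls ended (adjusted p = 0.066 to 0.29), without skin replicate 2 it was 4 of them (0.13 to 0.25), and 2 or 3 ended without each tail replicate (0.050 to 0.11). Pax3 did not pass with the slide as a block (adjusted p = 0.073), nor Tbx3 with quantile normalization (0.056) or the value table (0.44).

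Keratinocyte genes were higher in the skin cultures. Of 39 keratinocyte markers tested, 12 (30.8%) were called higher in skin and 0 in tail, and the median difference was 1.37. Of all genes, 1.18% were called higher in skin and 1.66% in tail. Krt14, a keratin of the basal epidermis, had levels of 2.51 and 3.10 in skin cultures, against -3.31, -2.37 and -3.69 in tail cultures. Both skin arrays lay far above every tail array (5.92 ± 0.90, adjusted p = 0.0030). Krt17, a keratin of hair follicles and wounded epidermis, stood at 3.81 and 4.58 in skin, against -6.89, -3.68 and -4.42 in tail, where 1 of 3 arrays was well above background (9.19 ± 1.43, adjusted p = 0.0033). Serpinb5, a serpin of epithelial cells, was not well above background on any tail array and was at least 194-fold higher in skin (adjusted p = 0.0072). The plakophilin Pkp1 of desmosomes, the laminin subunits Lama3 and Lamb3 of the epidermal basement membrane, Itgb4, which binds that laminin, the gap junction gene Gjb2, the keratins Krt6b and Krt16 and the desmosome gene Perp were among the other calls. Their differences ran from 2.53 for Itgb4 to 5.76 for Pkp1.

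The remaining keratinocyte markers were not called. Krt5, the partner of Krt14, stood at 0.55 and 0.42 in skin, against -1.60, -1.27 and -1.71 in tail, which did not overlap but did not pass (adjusted p = 0.90). Trp63, the regulator of basal keratinocytes, had 2.03 and 2.13 in skin, slightly under the 2.44, 2.22 and 2.26 in tail (adjusted p = 1.0). Krt1, a keratin of the differentiating layers, was not well above background on any of the 5 arrays. The summed level of all 39 markers was 6.79 and 7.08 in skin, against 4.51, 4.91 and 4.68 in tail. Here and below, a summed level is the log2 of the sum of the unlogged signals of a list. Its brightest members therefore weigh most. The part of keratinocytes in the other differences was not tested. Fewer cells of a type and less RNA per cell cannot be told apart in these bulk samples. Without skin replicate 2, 9 of the 12 calls ended (adjusted p = 0.062 to 0.30), Pkp1, Krt16 and Lama3 being kept, and without skin replicate 1 it was 6 (0.070 to 0.29). Leaving out 1 tail replicate ended 2 to 4 calls (0.059 to 0.14). With the slide as a block 10 of the 12 passed, Krt6b and Itgb4 not (adjusted p = 0.052 to 0.057), and Lama3 did not with the mean of its probes (0.083) or the value table (0.17).

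Of the late cornified envelope genes, 3 were among the 20 largest called skin differences. They were found by that rank and not from a list; Ivl, Lor and Sprr1a, envelope genes on the keratinocyte list, were not called. Lce3a had levels of -1.65 and 0.07 in skin, against -7.37, -6.62 and -6.58 on tail arrays not well above background, at least 60.9-fold higher in skin (adjusted p = 0.00066). Lce1f was at least 61.4-fold higher (adjusted p = 0.0077), and Lce1i differed by 6.19 ± 0.93 (adjusted p = 0.0029). The Lce genes are near copies of one another, so a probe of one can bind the RNA of another and the members are uncertain singly. The mean of its probes ended the call of Lce1i (adjusted p = 0.070), as did the absence of skin replicate 2 (0.065), and Lce1f was lost without either skin replicate (0.070 and 0.15).

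Acute phase and innate defence genes were higher in skin fibroblasts in part of their list. Of 33 members 5 (15.2%) were called higher in skin, against 1.18% of all genes, and 0 in tail, with a median difference of 0.58. Without the 5 high-background arrays 11 were called higher in skin and 1 in tail, where 6.38% and 5.62% of all genes were. Saa3, a serum amyloid made outside the liver, had levels of 4.18 and 4.56 in skin, against -2.96, -3.14 and -4.24 in tail. The groups lay far apart (7.82 ± 1.30, adjusted p = 0.0047), by 7.14 within slide 1 and by 7.70 within slide 2. The cytokine Il6 stood at 4.01 and 4.43 in skin, against -0.58, -1.49 and -0.75 in tail (5.16 ± 0.75, adjusted p = 0.0024). Il11, a cytokine of the same family, showed 4.87 and 5.53 in skin, against 0.75, 0.58 and 0.96 in tail (4.44 ± 0.63, adjusted p = 0.0020). In both cytokine genes the lowest skin array lay well above the highest tail array. The haemoglobin-binding protein gene Hp (4.87 ± 0.98, adjusted p = 0.015) and the complement gene C3 (3.54 ± 0.73, adjusted p = 0.017) were the other calls. Among 23 chemokines only Cxcl3 was called, at least 8.24-fold higher in skin (adjusted p = 0.0058), with a list median of -0.16, and quantile normalization ended that call (adjusted p = 0.10). That share of 4.35% was near the 2.84% of all genes called. The 250 bases before the start were searched in the same way as for the interferon-stimulated genes below, for an element of NF-kB (GGG, then any 2 bases, then TTTCC, on either strand), which stood in 1 of the 5 windows matched for 4 of the 5 called acute phase genes, that of Il6, against 1.41% of 32851 windows. All 6 of these calls ended without skin replicate 2 (adjusted p = 0.055 to 0.22) and all but those of Il6 and Il11 without skin replicate 1 (0.066 to 0.21). Hp did not pass without tail replicates 1 or 2 and C3 without tail replicates 1 or 3 (0.057 to 0.070).

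Genes of tendon and of its matrix were higher in tail fibroblasts. Of 23 tendon genes 5 were called higher in tail and 1 in skin, with a median difference of -1.07. Together the calls were 26.1% of the list, against 2.84% of all genes. Thbs4, a thrombospondin of tendon and muscle matrix, had levels of -2.63 and -2.18 in skin, against 7.79, 7.39 and 7.81 in tail. All tail arrays lay far above both skin arrays (-10.07 ± 1.30, adjusted p = 0.0013), with differences of -10.41 within slide 1 and -9.57 within slide 2. Comp, its relative in cartilage and tendon, stood at 1.32 and 1.46 in skin, against 7.73, 7.09 and 7.27 in tail (-5.97 ± 0.85, adjusted p = 0.0020). The matrix protein gene Cilp had 1.18 and 0.59 in skin, against 5.93, 5.52 and 5.80 in tail (-4.86 ± 0.98, adjusted p = 0.015). In each of these genes the lowest tail array was above the highest skin array by more than the range within either group. The fibril-associated collagen Col14a1 (-4.22 ± 0.67, adjusted p = 0.0036) and Angptl7, an angiopoietin-like protein (-6.16 ± 1.20, adjusted p = 0.012), were the other tail genes. Thbs2, another thrombospondin, was the member higher in skin (3.52 ± 0.63, adjusted p = 0.0072).

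The regulators and late markers of tendon did not pass. Scx, the tendon transcription factor, stood at 0.80 and 0.75 in skin, against 2.03, 2.55 and 2.03 in tail (adjusted p = 0.52). Tnmd, a membrane protein of mature tendon, stood at -1.18 and -1.17 in skin, against 2.16, 1.48 and 1.89 in tail (adjusted p = 0.15), and Mkx, another regulator, at -3.27 and -2.76, against -0.24, -0.05 and -0.58 (adjusted p = 0.064). All 3 were higher on every tail array than on either skin array, which was so for 20.7% of all genes. The summed level of the 23 tendon genes was 7.87 and 8.05 in skin, against 9.43, 9.03 and 9.33 in tail, and the part of tendon cells in the tail cultures was not tested. No cartilage gene of 18 was called (median -0.34), and of 18 bone genes 1 was called in each direction, Bglap2 higher in tail (-3.63 ± 0.50, adjusted p = 0.0019) and Postn higher in skin (2.91 ± 0.67, adjusted p = 0.031). Without the 5 high-background arrays 3 cartilage genes were called higher in tail and 0 in skin. Of the bone genes 2 were then higher in skin and 1 in tail. Of all genes, 6.38% were then higher in skin and 5.62% in tail. Without either skin replicate the calls of Cilp, Angptl7, Col14a1 and Thbs2 ended (adjusted p = 0.054 to 0.25), while those of Thbs4 and Comp were kept. Cilp did not pass without tail replicates 1 or 3 (0.064 and 0.057), nor Angptl7 without tail replicate 2 (0.052).

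**Figure D3:**
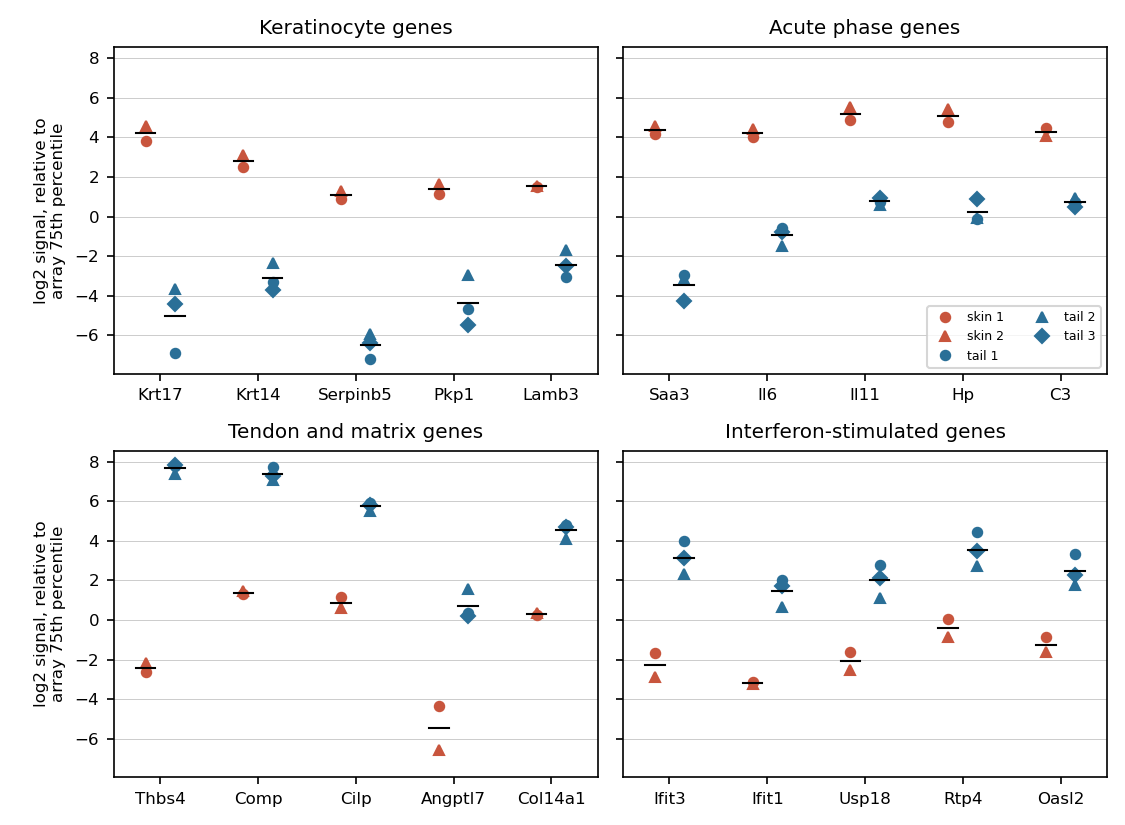
Levels (log2 relative to the array 75th percentile) of 5 genes each of 4 groups; red symbols are skin arrays and blue symbols tail arrays, the symbol gives the replicate, and the bar is the group mean. Skin arrays stand above tail arrays for the keratinocyte and acute phase genes shown, and below them for the tendon and interferon-stimulated genes shown.

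Of the 29 gene lists, that of interferon-stimulated genes had the most calls in tail fibroblasts. Of 24 members 13 (54.2%) were called higher in tail, against 1.66% of all genes, and 0 in skin. The median difference was -2.43, and all 24 differences were negative. Ifit3, an antiviral protein gene that interferon switches on, had levels of -1.66 and -2.86 in skin, against 3.99, 2.32 and 3.12 in tail. Its relative Ifit1 stood at -3.15 and -3.24 in skin, against 2.00, 0.66 and 1.74 in tail. The groups lay apart in both, by -5.40 ± 0.77 for Ifit3 (adjusted p = 0.0020) and -4.66 ± 0.79 for Ifit1 (adjusted p = 0.0055). Usp18, the protease that removes Isg15 from proteins, stood at -1.64 and -2.51 in skin, against 2.78, 1.09 and 2.13 in tail (-4.08 ± 0.70, adjusted p = 0.0061). Isg15 itself, a ubiquitin-like protein, had 2.46 and 1.64 in skin, against 6.22, 4.48 and 5.62 in tail (-3.39 ± 0.72, adjusted p = 0.019). Within both groups the arrays also varied: skin replicate 2 and tail replicate 2 were the lower arrays of their groups in all 4 genes. Rtp4, Oasl2, Xaf1, Gbp3, Irf7, Bst2, Stat2 and Ifih1 were among the other calls, with differences of -3.94 to -2.39. They include the transcription factors Stat2 and Irf7 of the interferon response and the RNA sensor Ifih1.

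Of the 24 interferon-stimulated genes 21 did not overlap, all higher in tail, which was so for 20.7% of all genes. Their summed level was 4.83 and 4.43 in skin, against 7.93, 6.53 and 7.30 in tail. With the slide as a block 10 of the 13 calls were kept, those of Bst2, Stat2 and Ifih1 ending (adjusted p = 0.064 to 0.087). Without skin replicate 2 all 13 calls ended (adjusted p = 0.061 to 0.46), and without skin replicate 1 it was 10, those of Ifit3 and Usp18 being kept (0.057 to 0.29). Leaving out tail replicate 1, 2 or 3 ended 9, 5 and 7 calls (0.051 to 0.21). Without the 5 high-background arrays 19 of the 24 genes were called higher in tail, where 5.62% of all genes were. In the mouse, interferon acts through a complex with STAT2 and IRF9, which binds an element whose core was searched here as GAAA, then any 2 bases, then GAAA. The 250 bases before the start of 10 of the 13 called genes were matched in RefSeq (GRCm38.p6), with 11 windows in all. The core stood on either strand in 6 of the 11, those of Ifit3, Ifit1, Isg15, Gbp3, Bst2 and Stat2, against 2.98% of 32851 such windows. Cores can overlap each other, as in the Isg15 window, which holds 3. Of these, 5 are printed 5′ to 3′ along the gene, to show where the core (in capitals, either strand) stands before the genes that differed; the match is a description of the letters only. They lie at chr19:34583279-34583528 (plus strand) for Ifit3, chr19:34640639-34640888 (plus) for Ifit1, chr4:156200819-156201068 (minus) for Isg15, chr3:142559794-142560043 (plus) for Gbp3, which has a further start, and chr8:71537473-71537722 (minus) for Bst2.
Ifit3: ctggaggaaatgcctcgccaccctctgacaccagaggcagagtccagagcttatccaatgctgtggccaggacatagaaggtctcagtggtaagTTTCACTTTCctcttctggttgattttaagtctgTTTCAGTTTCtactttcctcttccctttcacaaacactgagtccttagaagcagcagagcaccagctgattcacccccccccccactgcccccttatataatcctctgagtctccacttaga
Ifit1: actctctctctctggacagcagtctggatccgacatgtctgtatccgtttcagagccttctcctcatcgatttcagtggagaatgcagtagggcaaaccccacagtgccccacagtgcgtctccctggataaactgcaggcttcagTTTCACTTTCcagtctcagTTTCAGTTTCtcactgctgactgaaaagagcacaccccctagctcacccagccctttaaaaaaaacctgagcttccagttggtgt
Isg15: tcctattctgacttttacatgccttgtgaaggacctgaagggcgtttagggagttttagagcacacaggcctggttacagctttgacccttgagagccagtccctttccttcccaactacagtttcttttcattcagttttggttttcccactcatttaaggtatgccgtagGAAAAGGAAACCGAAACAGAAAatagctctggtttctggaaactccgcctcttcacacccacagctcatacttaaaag
Gbp3: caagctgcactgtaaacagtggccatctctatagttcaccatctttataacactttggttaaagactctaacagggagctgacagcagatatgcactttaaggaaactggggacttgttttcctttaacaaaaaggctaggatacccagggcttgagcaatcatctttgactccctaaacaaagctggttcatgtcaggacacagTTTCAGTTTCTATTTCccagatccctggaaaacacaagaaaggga
Bst2: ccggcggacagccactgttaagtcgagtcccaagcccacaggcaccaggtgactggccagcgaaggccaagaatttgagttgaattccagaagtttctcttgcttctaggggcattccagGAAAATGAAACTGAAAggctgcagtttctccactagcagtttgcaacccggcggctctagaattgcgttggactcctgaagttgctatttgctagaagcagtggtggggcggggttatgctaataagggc

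Counted in bases from the start of the gene, the cores of Ifit3 began at -156 and -122, and those of Ifit1 at -104 and -85. The overlapping run of Isg15 began at -78, that of Bst2 at -130 and that of Gbp3 at -45. As given above, these genes were all higher on every tail array than on either skin array, with differences of -5.40 for Ifit3, -4.66 for Ifit1, -3.39 for both Isg15 and Gbp3, and -2.59 for Bst2.

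Secreted signals of the Wnt pathway differed in both directions. Wnt ligands act on neighbouring cells, R-spondins strengthen the signal, and the Sfrp and Dkk proteins modulate or block it. Of 26 such genes 4 were called higher in skin and 3 higher in tail (median 0.05). Together the calls were 26.9% of the list, against 2.84% of all genes. Sfrp2 had levels of 1.48 and 1.32 in skin, against 6.94, 6.86 and 6.86 in tail, and the replicates of each group lay close together (-5.48 ± 1.15, adjusted p = 0.019). Its relative Sfrp4 stood at -1.82 and -1.38 in skin, against -5.04, -6.59 and -6.57 on tail arrays that were not well above background, at least 20.6-fold higher in skin (adjusted p = 0.0063). The R-spondins differed in opposite directions. Rspo3 had 0.27 and -1.0 in skin, against 4.42, 3.59 and 3.95 in tail (-4.36 ± 0.72, adjusted p = 0.0046), while Rspo1 had 1.09 and 0.24 in skin, against -2.87, -2.39 and -2.87 in tail (3.37 ± 0.48, adjusted p = 0.0021). The antagonist Dkk2 was higher in tail (-3.97 ± 0.70, adjusted p = 0.0069), and the ligands Wnt10a (3.35 ± 0.69, adjusted p = 0.016) and Wnt9a (2.38 ± 0.57, adjusted p = 0.040) were higher in skin. Without skin replicate 1 only the call of Rspo3 was kept, and without skin replicate 2 only that of Rspo1 (adjusted p = 0.060 to 0.35 for the others). Sfrp2 and Wnt9a did not pass with the slide as a block (0.053 and 0.068) or without any 1 tail replicate, nor Wnt10a without tail replicates 1 or 3 (0.056 to 0.15). Sfrp4 did not pass with normexp and quantile normalization (0.15) or the value table (0.12), nor Dkk2 and Wnt9a with quantile normalization (0.073 to 0.17).

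Some BMP and TGF-beta genes and retinoic acid genes differed. Bmp4, a ligand of dermal and hair follicle mesenchyme, stood at 1.85 and 0.56 in skin, against 4.95, 4.34 and 4.33 in tail (-3.34 ± 0.74, adjusted p = 0.027). Bmp2 was also higher in tail (-2.08 ± 0.51, adjusted p = 0.047) and Tgfb1, a ligand that drives matrix production, higher in skin (2.51 ± 0.51, adjusted p = 0.015). These were the calls among 27 genes (11.1%, median 0.05), against 2.84% of all genes. Of 18 retinoic acid genes 3 were called (16.7%), all higher in skin (median 0.59). The receptor Rarb had 0.90 and 1.75 in skin, against -2.95, -3.69 and -3.45 in tail (4.69 ± 1.12, adjusted p = 0.039). Aldh1a2, which makes retinoic acid (2.83 ± 0.66, adjusted p = 0.036), and Rarres2, which encodes chemerin (1.96 ± 0.39, adjusted p = 0.013), were the others. These 6 genes did not overlap between the groups. None of their calls was kept without skin replicate 1 (adjusted p = 0.082 to 0.21), skin replicate 2 (0.24 to 0.59), tail replicate 1 (0.065 to 0.16) or tail replicate 3 (0.051 to 0.12), and 4 ended without tail replicate 2 (0.069 to 0.16). With the slide as a block Bmp4, Bmp2, Rarb and Aldh1a2 did not pass (0.058 to 0.095), and with the mean of their probes Bmp4 and Rarb did not (0.15 and 0.084). Quantile normalization ended the calls of Rarb and Rarres2 (0.054 and 0.078), and median scaling, normexp, the value table and robust eBayes that of Bmp2 (0.077 to 0.11).

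Markers of dermal fibroblast subtypes differed in both directions, with most of the calls higher in tail. Of 27 genes 4 were called higher in tail (Sfrp2, Cd34, Mest and Pi16) and 1 higher in skin (Sfrp4), with a median of -0.12. Together the calls were 18.5% of the list, against 2.84% of all genes. Cd34, a surface marker of reticular and adventitial fibroblasts, had levels of 0.98 and 0.44 in skin, against 5.84, 5.46 and 5.24 in tail. The groups lay far apart (-4.80 ± 0.68, adjusted p = 0.0020). The imprinted gene Mest stood at -2.11 and -2.28 in skin, against 2.10, 1.30 and 1.88 in tail (-3.95 ± 0.55, adjusted p = 0.0020). Pi16, a marker of adventitial fibroblasts, was higher in tail as well (-2.88 ± 0.70, adjusted p = 0.042). Among 24 dermal papilla and hair follicle mesenchyme genes, Rspo3, Bmp4 and Trps1 (-1.75 ± 0.42, adjusted p = 0.041) were higher in tail and Rspo1 was the single call in skin. The calls were 16.7% of that list.

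A few matrix genes were called. Of 27 collagens 2 were called (7.41%), against 2.84% of all genes. Col7a1, which forms the anchoring fibrils under the epidermis, stood at 6.03 and 5.70 in skin, against 2.53, 2.60 and 2.27 in tail (3.40 ± 0.56, adjusted p = 0.0046). Col27a1 was higher in tail (-1.52 ± 0.38, adjusted p = 0.048). Of 33 matrix proteases and inhibitors 2 were called (6.06%), Mmp9 (4.04 ± 0.74, adjusted p = 0.0085) and Mmp17 (1.68 ± 0.40, adjusted p = 0.038), both higher in skin. Postn, a matrix protein of wounds and of the fibroblast list, was the single call among the 20 fibroblast markers (5%, near the 2.84% of all genes). Of Cd34, Mest, Pi16, Trps1, Postn, Col7a1, Col27a1, Mmp9 and Mmp17, the call of Mest was kept without any 1 of the 5 skin and tail arrays. Without skin replicate 1 all but those of Cd34 and Mest ended and without skin replicate 2 all but that of Mest (adjusted p = 0.055 to 0.47), 4 or 5 ended without each tail replicate (0.061 to 0.21), and Pi16, Trps1, Col27a1 and Mmp17 ended with the slide as a block (0.067 to 0.089). Col27a1 also ended with quantile normalization (0.57), normexp (0.10), the value table (0.11) and robust eBayes (0.075), and Trps1 with the mean of its probes (0.10).

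Proliferation genes mostly had higher levels in skin fibroblasts, but 1 member passed the test. Of 20 genes 19 differences were positive and 17 genes did not overlap with skin the higher group, which was so for 23.8% of all genes. The median difference was 1.72, and 1 gene, the spindle checkpoint kinase Bub1, was called (2.23 ± 0.45, adjusted p = 0.015). That share of 5% was near the 2.84% of all genes called. Mki67, the Ki-67 gene of cycling cells, stood at 5.17 and 5.39 in skin, against 3.28, 3.01 and 3.05 in tail (adjusted p = 0.070). Without the 5 high-background arrays 16 of the 20 were called higher in skin, where 6.38% of all genes were. The call of Bub1 ended without any 1 of the 5 arrays (adjusted p = 0.057 to 0.22).

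Markers of other cell types were read for each culture. Of 25 skeletal muscle markers 3 (12%) were called higher in skin and 0 in tail (median 0.48), against 2.84% of all genes called. Without the 5 high-background arrays 10 were called higher in skin and 0 in tail, where 6.38% of all genes were higher in skin. Myog, the myogenic regulator, stood at -3.13 and -2.58 in skin, against -6.59, -5.89 and -6.48 in tail (3.46 ± 0.63, adjusted p = 0.0081). On tail arrays it lay near the floor, with 2 of 3 well above background, and with normexp and quantile normalization its difference was 0.997, under the minimum. The muscle genes Chrna1 (3.65 ± 0.91, adjusted p = 0.047) and Myl1 (4.62 ± 1.1, adjusted p = 0.039) were the others. Pax7, the gene of muscle stem cells, was not well above background on any of the 5 arrays, and the summed muscle level was 4.83 and 4.79 in skin, against 3.22, 3.79 and 4.55 in tail. Of 19 endothelial markers Flt1 was higher in skin (2.70 ± 0.43, adjusted p = 0.0039) and Tek higher in tail (-3.13 ± 0.65, adjusted p = 0.017), 10.5% of the list. Pecam1, the general endothelial marker, overlapped at -1.11 and -2.19 in skin, against -2.09, -1.39 and -1.70 in tail. The summed endothelial level was 5.26 and 5.07 in skin, against 4.34, 4.24 and 4.42 in tail. Of 22 macrophage and leukocyte markers 1 was called, the macrophage receptor gene Csf1r, higher in skin (2.46 ± 0.55, adjusted p = 0.029), while the pan-leukocyte gene Ptprc overlapped. That share of 4.55% was near the 2.84% of all genes called. The summed level of these 22 markers was 5.51 and 5.57 in skin, against 4.71, 4.46 and 4.76 in tail.

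Of 11 pericyte markers Anpep (-3.11 ± 0.51, adjusted p = 0.0043) and Ndufa4l2 (-2.11 ± 0.47, adjusted p = 0.026) were higher in tail (18.2%, against 2.84% of all genes called). No gene of 16 Schwann cell and melanocyte markers or of 16 contractile genes was called. Without the 5 high-background arrays 2 Schwann cell and melanocyte markers were called higher in tail and 0 in skin. Of the contractile genes 3 were then higher in skin and 1 in tail. Of all genes, 6.38% were then higher in skin and 5.62% in tail. Of 19 fat cell genes only Car3 was called (5.26%, near the 2.84% of all genes), with levels of -3.67 and -4.42 in skin, against 4.69, 5.71 and 4.25 in tail. Car3 encodes a carbonic anhydrase abundant in fat and muscle, and its tail levels lay far above skin (-8.93 ± 1.26, adjusted p = 0.0020), while the fat hormone gene Adipoq overlapped between the groups. The summed fat cell level was 7.39 and 7.66 in skin, against 7.46, 7.54 and 7.62 in tail. The median level of the list was -1.75 and -2.15 in skin, against 0.90, 1.13 and 1.74 in tail, while its median difference was -0.05. The part of these cell types in the other differences was not tested. Of Car3, Bglap2, Anpep, Ndufa4l2, Tek, Flt1, Csf1r, Myog, Chrna1 and Myl1, 8 calls ended without skin replicate 1, 9 without skin replicate 2, that of Car3 being kept in both (adjusted p = 0.055 to 0.38), and 3 to 5 without each tail replicate (0.057 to 0.19). Chrna1, Myl1 and Ndufa4l2 ended with the slide as a block (0.053 to 0.091), Myl1 and Csf1r with the mean of their probes (0.065 and 0.079), Myl1 on the 5 arrays alone (0.068) and Chrna1 with median scaling (0.060).

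**Figure D4:**
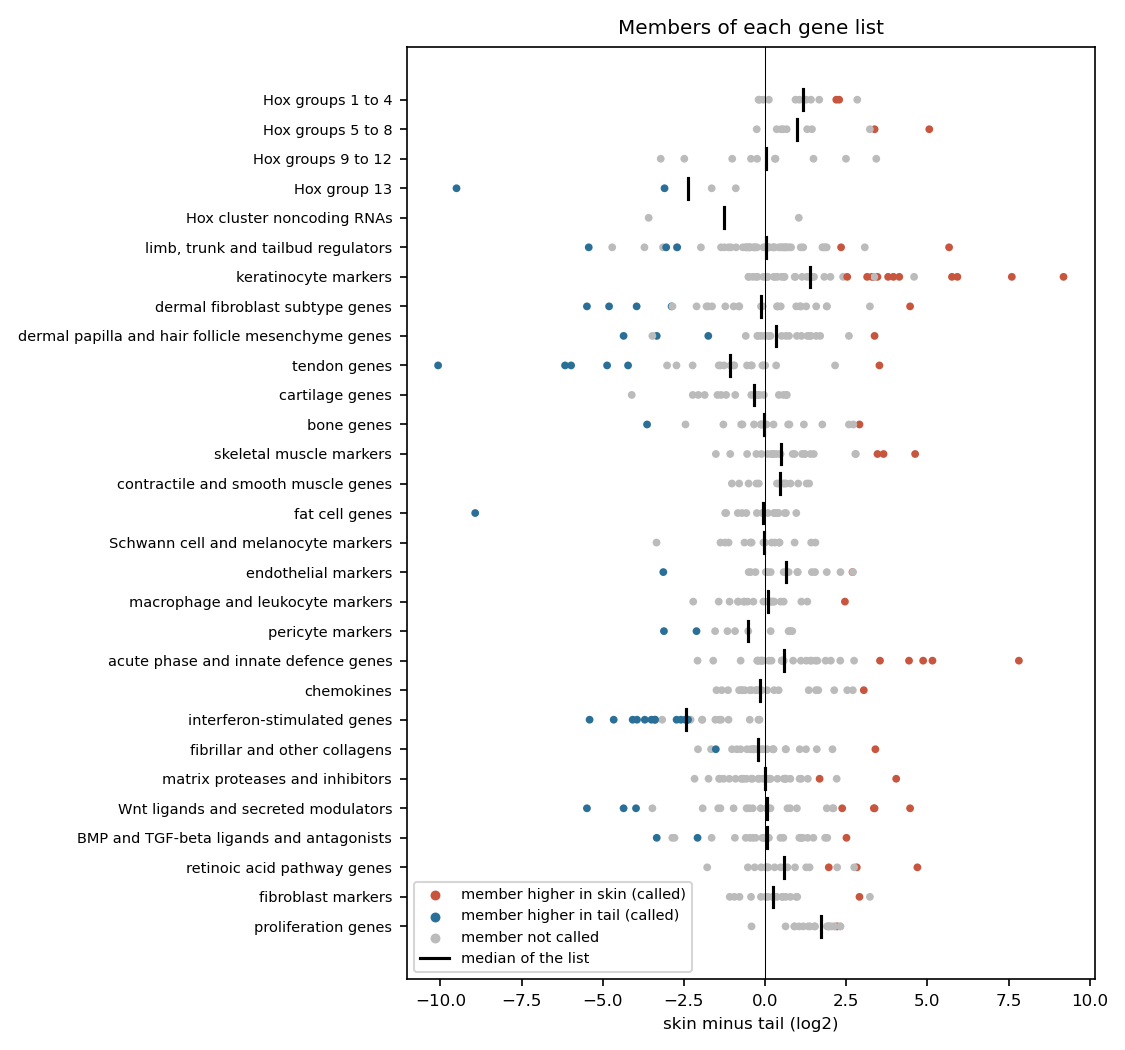
Differences between skin and tail fibroblasts (log2, skin minus tail) for the members of 29 gene lists, 1 point per gene; red points were called higher in skin, blue points higher in tail, grey points were not called, and the black bar is the median of the list. The keratinocyte, proliferation and interferon-stimulated lists have medians of 1.37, 1.72 and -2.43.

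Outside the lists, the genes with the largest skin excess included several that were near the floor in tail. Plac8, a small cysteine-rich protein gene, had levels of 5.06 and 5.26 in skin, against -0.88, -2.15 and -0.79 in tail, a wide gap (6.44 ± 0.71, adjusted p = 0.00054). Heyl, a Notch target, was at least 80.5-fold higher in skin (adjusted p = 0.0020), with no tail array well above background. Cyp4b1 (at least 108-fold, adjusted p = 0.0055), the acyl-CoA synthetase Acsbg1 (at least 62.7-fold, adjusted p = 0.0033), the bradykinin receptor Bdkrb1 (at least 51.3-fold, adjusted p = 0.011), the phosphatase Ptpn5 (at least 48.3-fold, adjusted p = 0.0020) and the oxidized LDL receptor Olr1 (at least 43.5-fold, adjusted p = 0.0028) were of the same kind. Ramp3, which pairs with the calcitonin-like receptor (5.38 ± 0.57, adjusted p = 0.00044), and Greb1, an oestrogen-responsive gene (5.26 ± 0.74, adjusted p = 0.0020), were higher in skin with narrow spread. Rpl39l differed by 7.56 ± 1.28 (adjusted p = 0.0054), and its probe may share signal with the near-identical Rpl39. Without skin replicate 2 the calls of Plac8, Heyl, Ramp3 and Greb1 were kept and the other 6 ended (adjusted p = 0.050 to 0.16), without skin replicate 1 those of Rpl39l, Cyp4b1 and Bdkrb1 ended (0.068 to 0.10), and Bdkrb1 ended without tail replicate 3 (0.055).

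In tail the genes with the largest excess came from many functions. Calca, which encodes calcitonin and the neuropeptide CGRP, had levels of -6.72 and -6.49 in skin, not well above background, against 0.94, 0.32 and 0.56 in tail, at least 148-fold higher in tail (adjusted p = 4.2e-05). With the mean of its probes the Calca difference was -3.52 and the call ended (adjusted p = 0.095). Ddx4, a helicase known from germ cells, was at least 140-fold higher in tail by the same bound (adjusted p = 4.2e-05). Its levels were -6.62 and -5.89 in skin, against 1.16, 0.82 and 0.66 in tail. The tail arrays lay close together and far from skin. Gas2, a gene of the growth-arrest set that binds actin, stood at -1.05 and -0.91 in skin, against 5.51, 4.76 and 5.15 in tail (-6.12 ± 0.49, adjusted p = 4.2e-05). Pcp4l1 (-6.85 ± 0.67, adjusted p = 0.00027), Pamr1 (-5.87 ± 0.64, adjusted p = 0.00046) and Igfbp4, which binds insulin-like growth factors (-5.73 ± 0.74, adjusted p = 0.0013), were likewise higher in tail. So were the neuropeptide Y receptor gene Npy6r (at least 90.9-fold, adjusted p = 0.00044) and the nuclear factor Tox (at least 67.1-fold, adjusted p = 0.00044).

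The growth factor Fgf5, which in mouse ends hair growth, differed by -6.57 ± 1.52 (adjusted p = 0.034), and its call ended without either skin replicate, without any 1 tail replicate (adjusted p = 0.086 to 0.12) and with the slide as a block (0.085). The matrix gene Abi3bp (-6.43 ± 1.20, adjusted p = 0.0096), Gdpd2 (-6.40 ± 1.16, adjusted p = 0.0080) and Klhl1 (-5.79 ± 0.82, adjusted p = 0.0020) were also higher in tail. Svs3b and Nckap5 were at least 52.1-fold and 46.6-fold higher in tail, with skin not well above background; Svs3b has a near-identical neighbour, so its signal is uncertain. Of the 14 genes of this kind named here the calls of Calca, Ddx4, Pcp4l1, Npy6r, Gas2, Tox, Pamr1 and Igfbp4 were kept without each skin or tail array. Those of Abi3bp, Gdpd2, Svs3b and Nckap5 ended without either skin replicate and that of Klhl1 without skin replicate 2 (adjusted p = 0.055 to 0.46, with Fgf5).

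Set beside the 13 arrays of internal organs, as a description without a test, many of these genes had their extreme in the body surface. In 197 of the 327 genes higher in tail (60.2%) all tail arrays lay above every internal organ array, against 4.8% of all genes. In 96 of the 233 genes higher in skin (41.2%) both skin arrays lay above every internal organ array, against 4.9% of all genes. In another view of the 233, all tail arrays lay below every internal organ array in 79 (33.9%), against 1.07% of all genes. The called genes were picked for a gap between skin and tail on these same arrays. That choice by itself raises such shares over those of all genes, so the shares are a description only. Thbs4 reached at most -1.38 in internal organs and Hoxb13 at most -2.28, far under their tail levels. Plac8 and Il6 were of the other kind: internal organ levels were at least 2.57 for Plac8 and 1.27 for Il6, above every tail array. Ifit3 reached 5.79 in the internal organs, in heart, and Saa3 4.66, in liver, so neither had its highest level at the body surface.

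**Figure D5:**
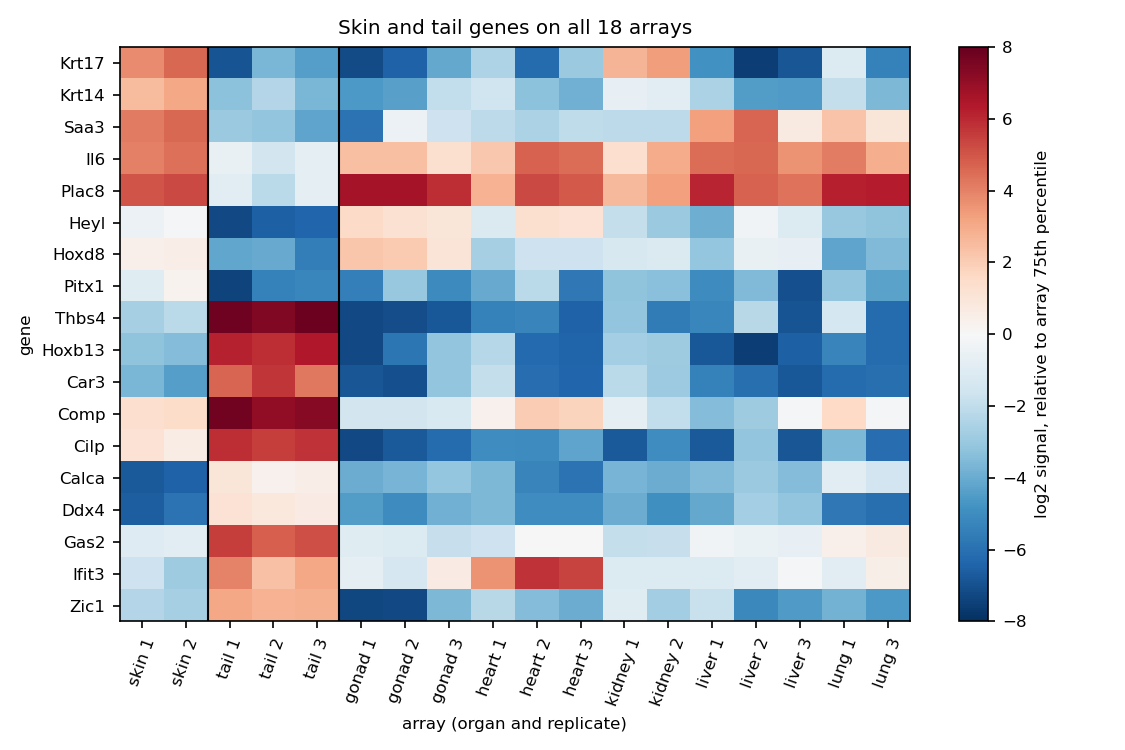
Levels (log2 relative to the array 75th percentile, colour scale) of 18 genes on all 18 arrays, skin first, then tail, then the internal organs. Thbs4, Hoxb13 and Car3 are red on the tail arrays alone, Plac8 is blue on the tail arrays alone, and Saa3 is red on the skin arrays and also on liver and lung arrays.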

How the data were processed

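The 18 scanner files hold 1 array each. Arrays of 62976 spots were read with Agilent Feature Extraction 11.0.1.1, per the file headers. The deposited processed signal is a background-subtracted spot intensity in scanner units, not normalized between arrays. Deposited raw medians and local backgrounds are intensities too, and other deposited columns are 0 or 1 flags. The deposited value table equalled the raw median intensity on all spots of 18 arrays and was an alternative only; lung replicate 2, which has no scanner file here, was not used.

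Probes were joined to gene symbols through RefSeq accessions (27235 of 55681 biological probes, 20660 genes). Outlier spots were dropped, which left 2023 probe values missing. Each log2 intensity was taken relative to the 75th percentile of its array, and for each gene the probe with the highest mean and no missing value was kept if well above background on at least 2 arrays; 480 genes had no complete probe and 457 were too dim, which left 19723. The share of probes above background stands for depth, and no spot was saturated. A model with 1 mean for each of 7 organs was fitted in limma 3.58.1 (R 4.3.3, 11 residual degrees of freedom); the contrast was skin minus tail, with Benjamini-Hochberg adjustment over all genes. The fit was tested on simulated data. Tables and figures used Python 3.11.15, pandas 2.3.3, numpy 2.4.6 and matplotlib 3.10.9.

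Named genes are the 20 largest called differences in each direction without predicted or clone names, up to 5 called members per list (2 where fewer were called), the Hox genes and defining markers of other cell types, 154 in all; some are given only as counts, and a few members beyond these (among them the remaining called keratinocyte and interferon-stimulated genes) were named after their values were seen. A few called genes are not reported here. The comparison, members and gene lists were chosen with earlier results of these data known. Alternatives were other normalizations, filters, probe summaries, variance models, thresholds, array sets, blocks for slide and for replicate number, and each skin or tail array left out.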

Additional observations from a re-analysis of the deposited data

How the results depend on the processing

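Of 154 named genes under 23 alternatives, 3347 comparisons could be made (other thresholds bear only on called genes, and a strict filter dropped 6 genes). Of these, 308 ended a call and 162 made one. No gene called in the main fit or in the alternative changed direction. Changes of direction in genes called in neither were not counted. Other thresholds leave the difference as it is, so they cannot change its direction. Of 560 genes called (233 higher in skin, 327 in tail), the slide block left 397. Leaving out 1 of the 5 arrays gave 77 to 310 genes (26 to 133 higher in skin, 51 to 177 in tail), the lowest without skin replicate 2. More genes passed with quantile normalization (1021; 512 higher in skin, 509 in tail), normexp with quantile normalization (1169; 558 and 611), median scaling (1224; 593 and 631), the value table (1155; 561 and 594), the 5 skin and tail arrays alone (2225; 1123 and 1102), array weights (2852; 1432 and 1420), high background as a term (1388; 607 and 781), no high-background arrays (2368; 1259 and 1109), and, chosen after seeing the data, no high-background arrays with normexp and quantile normalization (2103; 1008 and 1095). An adjusted p under 0.01 left 231 (85 and 146). The cause of these shifts was not tested. Of the 560 genes 376 were shared under quantile normalization and 447 to 560 under the other settings that gave more. The median of all genes moved from 0.01 to 0.17 with high background as a term and to -0.13 without tail replicate 1. With a replicate block 361 genes passed (146 higher in skin and 215 in tail), 359 of them among the 560. Replicates 1 and 2 of skin and tail each share a slide, but the labels do not say that a number marks a shared animal. Deviations of same-numbered arrays correlated at -0.28 and -0.31, which with 2 skin arrays, whose deviations mirror each other, does not settle whether they are pairs. With 2 skin arrays, levels near the floor are bounds only: 28 genes higher in skin had no tail array above background, and 48 higher in tail no skin array.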

Other observations

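Many genes with groups that did not overlap missed the threshold, since 44.5% of all genes tested did not overlap and 2.84% were called. Prg4, S100b, Fap and Lum are 4 of them. Prg4, the lubricin of joint and tendon surfaces, stood at -0.41 and -0.11 in skin, against 3.68, 3.82 and 4.03 in tail (adjusted p = 0.051 by limma). S100b, a calcium-binding protein of Schwann cells and cartilage, stood at -0.41 and -0.88 in skin, against 2.83, 2.61 and 2.65 in tail (adjusted p = 0.055 by limma). Fap, a protease of activated fibroblasts, stood at 2.71 and 2.86 in skin, against -0.11, -0.41 and -0.83 in tail (adjusted p = 0.065 by limma). Lum, a proteoglycan of collagen fibrils, stood at -0.77 and -1.47 in skin, against 2.30, 1.48 and 1.41 in tail (adjusted p = 0.18 by limma). In each the lowest array of the higher group lay above the highest array of the other by more than 2 log2 units, and in all 4 the test does not show that the groups are alike.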
